A study of Mus musculus with 8 samples.

Results

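Broad H3K27ac domains of freshly isolated mouse satellite cells are described here, with what became of them after muscle injury. A domain is a peak of 3 kb or more in freshly isolated satellite cells (FISC) replicate 1 that overlaps such a peak in FISC replicate 2. The rule selected 510 of the 45014 peaks of FISC replicate 1, from 705 peaks of 3 kb or more there and 714 in FISC replicate 2. The domains were chosen by their FISC lengths, so those lengths and every comparison of breadth between conditions are given as descriptions with no test. Activated satellite cells (ASC) came from skeletal muscle of C57BL/6 mice at 2.5 days after injury by BaCl2, and FISC came from muscle of the same strain without treatment. Each condition had 2 H3K27ac ChIPmentation libraries, in which antibody-bound chromatin is tagmented before sequencing, and the authors' peak list of each was used. The labels do not say whether replicates were separate animals, so p-values measure only the spread between these libraries. Input libraries were not analysed here.

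Satellite cells are the resident stem cells of skeletal muscle. They lie quiescent beneath the basal lamina of the fibre, are marked by the transcription factor Pax7, and on injury enter the cell cycle and express Myod1. H3K27ac is laid down by the acetyltransferases p300 and CBP at active promoters and enhancers. Unusually broad stretches of it are known from genes of cell identity and from strongly transcribed genes.

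The lists held 50154 and 54700 peaks in ASC replicates 1 and 2, against 45014 and 43092 in FISC, and covered 49.2 and 57.7 Mb in ASC, against 34.4 and 33.7 Mb in FISC. Peaks of 3 kb or more made up 4.17 and 5.50% of the ASC lists and 1.57 and 1.66% of the FISC lists. The files give no read counts, so depth is unknown, and peak length can move with depth as well as with acetylation. Of 22 satellite cell identity genes, 22 and 21 had a peak within 2 kb of a start in ASC, and 22 and 22 in FISC. Of the markers of other cells, 9 of 12 endothelial, 8 of 12 myeloid and 6 of 12 fibro-adipogenic genes had 0 kb in all 4 libraries, Pecam1, Ptprc and Pdgfra among them, and the others had peaks in at least 1 library. In bulk samples, fewer acetylated cells and less acetylation per cell cannot be told apart.

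Promoter sequences of 6 domains are shown because the domains of Fosl2, Id3 and Pax7 were kept in ASC and those of Cxcr4, Gpx3 and Prelp were trimmed. Each is the RefSeq window on GRCm38.p6 of 250 bases before to 50 after a start site, read 5′ to 3′ on the strand of the gene, and lies wholly within its domain. Capitals mark CG dinucleotides.
Fosl2, chr5:32136222-32136521, plus strand: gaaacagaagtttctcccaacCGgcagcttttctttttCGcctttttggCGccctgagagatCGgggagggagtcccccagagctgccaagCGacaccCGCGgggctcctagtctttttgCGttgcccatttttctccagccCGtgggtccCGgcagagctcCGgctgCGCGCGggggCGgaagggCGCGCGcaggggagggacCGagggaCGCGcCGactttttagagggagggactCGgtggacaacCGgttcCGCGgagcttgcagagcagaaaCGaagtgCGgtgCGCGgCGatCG
Id3, chr4:136143572-136143871, plus strand: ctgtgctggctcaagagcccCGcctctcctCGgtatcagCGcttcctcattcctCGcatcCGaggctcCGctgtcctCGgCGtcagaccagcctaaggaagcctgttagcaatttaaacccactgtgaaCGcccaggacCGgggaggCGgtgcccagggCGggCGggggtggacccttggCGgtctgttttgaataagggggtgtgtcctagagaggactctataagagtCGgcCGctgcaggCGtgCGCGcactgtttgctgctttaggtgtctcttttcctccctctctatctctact
Pax7, chr4:139832919-139833218, minus strand: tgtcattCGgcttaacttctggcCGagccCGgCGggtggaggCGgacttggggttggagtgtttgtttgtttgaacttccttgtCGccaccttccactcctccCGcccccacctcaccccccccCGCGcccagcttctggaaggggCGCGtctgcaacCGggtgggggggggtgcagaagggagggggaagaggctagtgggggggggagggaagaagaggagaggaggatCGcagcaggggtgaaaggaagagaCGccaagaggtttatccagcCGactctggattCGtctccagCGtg
Cxcr4, chr1:128592250-128592549, minus strand: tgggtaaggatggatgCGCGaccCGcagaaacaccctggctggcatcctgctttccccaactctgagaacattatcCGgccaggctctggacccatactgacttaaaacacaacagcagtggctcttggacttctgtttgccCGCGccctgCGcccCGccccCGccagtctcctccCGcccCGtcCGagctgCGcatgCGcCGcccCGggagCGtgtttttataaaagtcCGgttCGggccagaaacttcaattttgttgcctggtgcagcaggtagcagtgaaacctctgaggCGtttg
Gpx3, chr11:54902604-54902903, plus strand: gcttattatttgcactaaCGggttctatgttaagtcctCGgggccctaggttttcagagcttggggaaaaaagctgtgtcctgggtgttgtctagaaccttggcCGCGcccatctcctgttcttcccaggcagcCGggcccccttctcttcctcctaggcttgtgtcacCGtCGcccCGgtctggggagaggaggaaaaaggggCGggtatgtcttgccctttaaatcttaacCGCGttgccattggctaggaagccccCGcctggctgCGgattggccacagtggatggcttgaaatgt
Prelp, chr1:133921352-133921651, minus strand: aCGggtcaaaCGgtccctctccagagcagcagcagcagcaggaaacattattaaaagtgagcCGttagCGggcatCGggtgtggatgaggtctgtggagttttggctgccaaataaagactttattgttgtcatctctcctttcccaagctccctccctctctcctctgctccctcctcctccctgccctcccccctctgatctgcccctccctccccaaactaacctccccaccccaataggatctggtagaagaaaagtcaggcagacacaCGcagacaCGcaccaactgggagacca
These windows held 32 CG dinucleotides at Fosl2, 19 at Id3, 17 at Pax7, 20 at Cxcr4, 13 at Gpx3 and 7 at Prelp. Fosl2 encodes an AP-1 subunit, Id3 an inhibitor of basic helix-loop-helix factors, and Cxcr4 a chemokine receptor of satellite cells. Gpx3 encodes a secreted glutathione peroxidase and Prelp a leucine-rich proteoglycan of connective tissue.

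**Figure D1:**
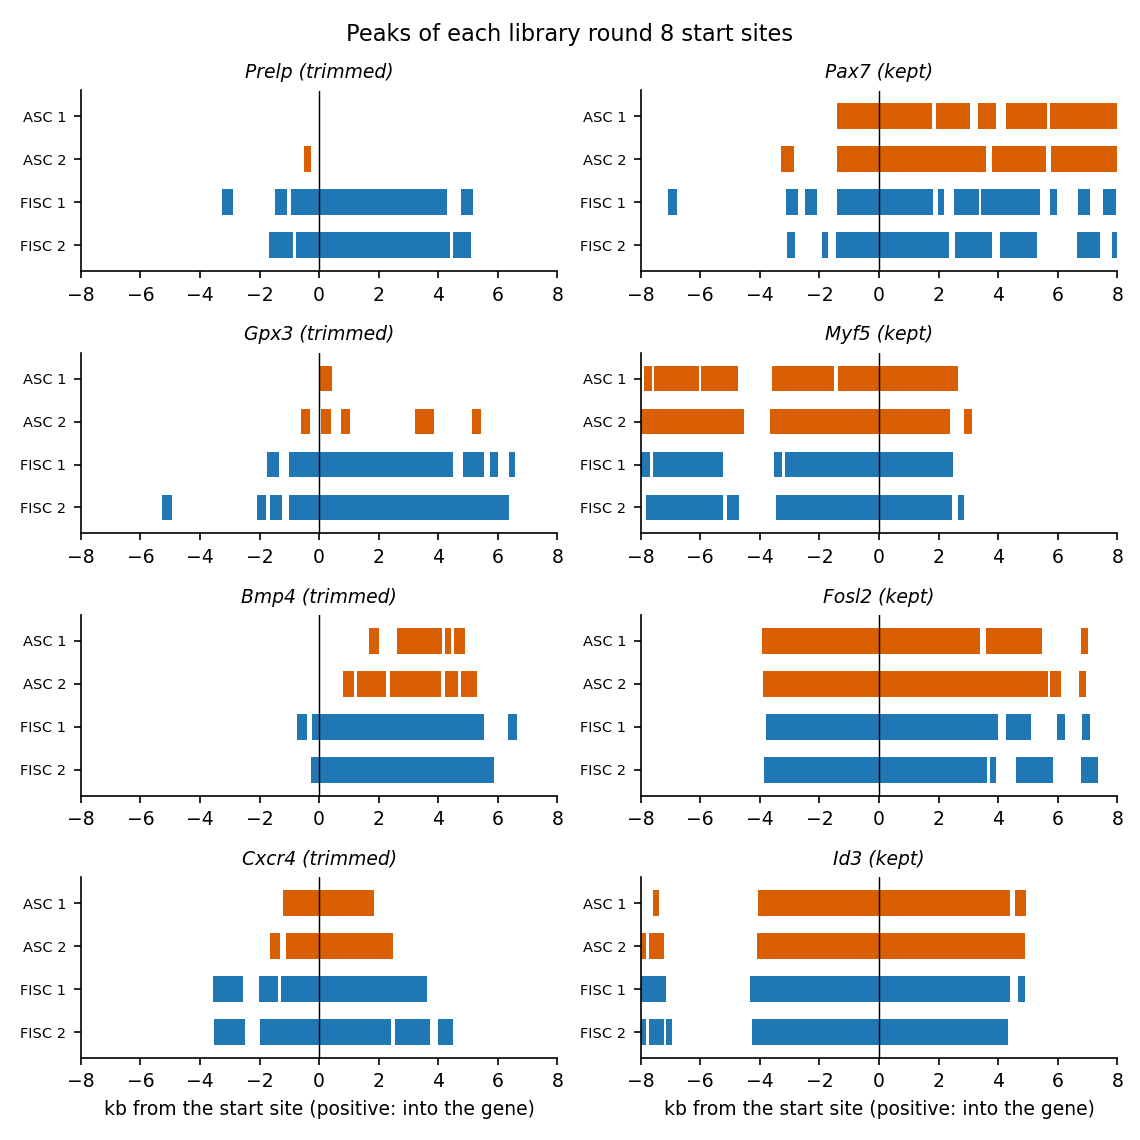
Peaks of each library (bars) within 8 kb of the start sites of 8 genes with a domain, in kb along the direction of the gene, with ASC libraries above FISC libraries. At Prelp and Gpx3 the ASC libraries had only short peaks or none where the FISC libraries had 1 long peak, while at Pax7, Myf5, Fosl2 and Id3 ASC peaks covered between 96.9 and 100% of the domain, in 2 pieces at Myf5 and Fosl2 in ASC replicate 1.

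Most broad domains of FISC remained covered in ASC. Of the domain bases, 86.5 and 91.7% lay under peaks in ASC replicates 1 and 2, against 96.5% in FISC replicate 2. The median domain was covered over 96.3 and 99.3% of its bases in ASC, against 97.3% in FISC replicate 2, and the lower quartile was 83.0 and 91.3% in ASC, against 95.1%. The FISC replicates thus differed less from each other than from ASC in the lower tail, although FISC replicate 2 was itself used by the rule. A domain was called kept where both ASC libraries covered at least 90% of it, and 336 domains (65.9%) were, beside 47.1% of all 34024 FISC peaks shared by both replicates. It was called trimmed where both covered under 75%, and 51 domains (10%) were, beside 31.5% of all shared peaks. The trimmed count rests on ASC replicate 2, since 91 domains (17.8%) were covered under 75% in ASC replicate 1 alone, against 51 in ASC replicate 2 alone. The other 123 (24.1%) fell between. In 19 domains both ASC libraries covered under 50%, and 0 domains had no ASC peak in both. ASC replicate 1 left 5 domains without any peak and ASC replicate 2 left 0.

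**Figure D2:**
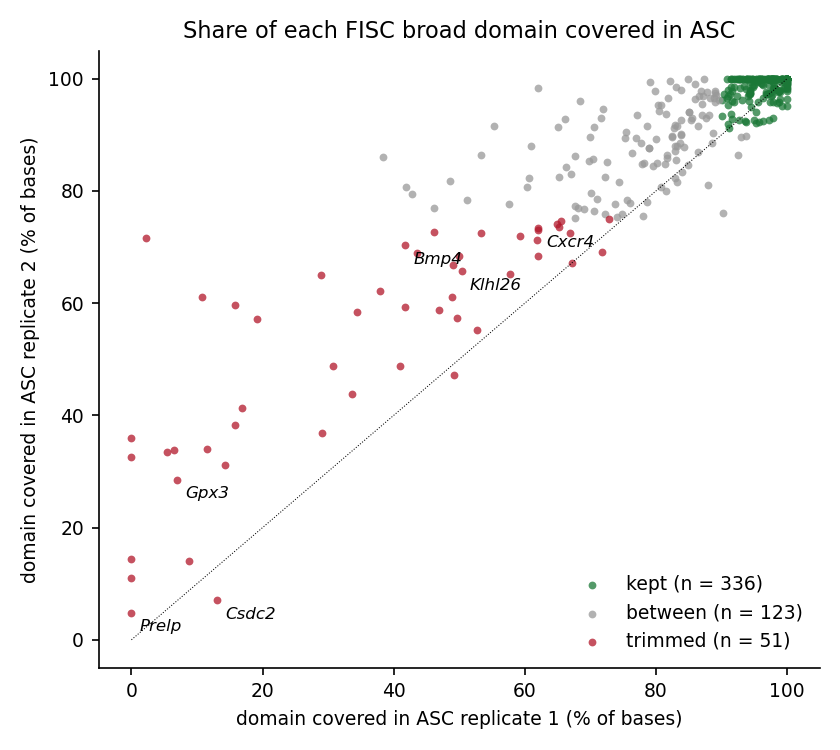
Share of each of the 510 domains covered in ASC replicate 2 (y axis, % of bases) against ASC replicate 1 (x axis, % of bases), 1 point per domain, with the dotted line marking equal shares. The 336 kept domains crowd the upper right corner and the 51 trimmed ones spread to the lower left, where Prelp had 0 and 4.84%.

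The share kept was higher for wider FISC peaks in general. Among shared FISC peaks under 0.5 kb, 34.8% were kept and 46.0% trimmed, among those of 1 to 2 kb 61.1 and 15.6%, and among those of 2 to 3 kb 65.6 and 11.2%. The domains, with 65.9 and 10%, lay close to the last class and so continued its values. Within the domains there was no steady order: 69.8% were kept at a mean FISC length of 3 to 3.5 kb, 62.2% at 3.5 to 4.5 kb and 66.2% at 4.5 kb or more. A further 195 shared FISC replicate 1 peaks reached 3 kb when no overlapping FISC replicate 2 peak did, and 47.7% of these were kept. The reverse look gave another picture, since of 1924 ASC domains chosen in the same way only 268 (13.9%) were covered to at least 90% in both FISC libraries and 1088 (56.5%) to under 75% in both. The ASC lists cover more bases in all, and with the lists cut to equal covered length 86 domains (16.9%) were trimmed.

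Domains lay mostly at gene starts, and those at starts were kept more often. Within 2 kb of an annotated start of a protein-coding gene lay 317 domains (62.2%, beside 40.3% of all shared FISC peaks), 120 (23.5%) lay in gene bodies and 73 (14.3%) between genes. At starts 235 (74.1%) were kept and 19 (5.99%) trimmed. In gene bodies 63 (52.5%) were kept and 19 (15.8%) trimmed, and between genes 38 (52.1%) and 13 (17.8%). Among all shared FISC peaks the kept share was 66.3% at starts, 32.9% in bodies and 36.0% between genes. Away from starts, broad domains thus had a kept share further above that of other peaks than at starts, which is a description of these lists. For genes missing from the promoter table either gene end counted as a start.

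**Figure D3:**
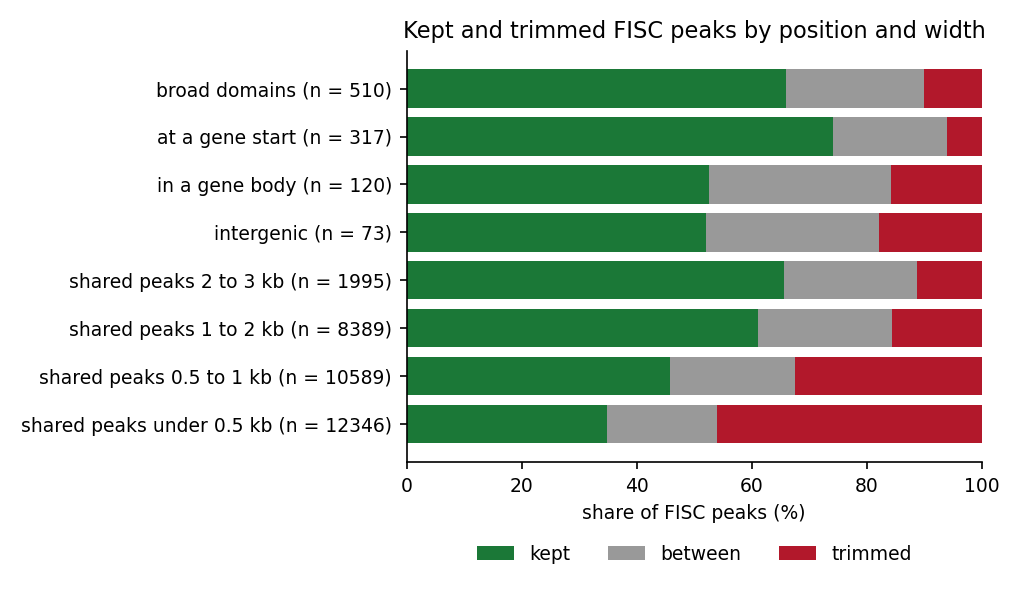
Share of FISC peaks (%) kept (at least 90% covered in both ASC libraries), between, and trimmed (under 75% in both), for the 510 domains, for domains by position, and for shorter FISC peaks shared by both replicates by width. Kept shares run from 74.1% for domains at gene starts to 34.8% for peaks under 0.5 kb.

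Kept domains were often longer in ASC. In 213 domains the longest ASC peak of both replicates exceeded both FISC lengths, and 211 of these were kept, while in 144 domains both were shorter than both FISC lengths. An overlapping ASC peak longer than a domain tends to cover it, so the 211 follow largely from the limit for kept. The ASC lists held 2093 and 3011 peaks of 3 kb or more, against 705 and 714 in FISC. Lengths at other shared FISC peaks were not compared in this way. A single ASC peak overlapped the domain in both libraries in 330 domains, and 70 were split into at least 2 peaks in both. The authors' fold enrichment at the summit, which is a value of each peak and depends on the depth of its library, had medians of 30.1 and 29.4 in ASC and 16.7 and 17.1 in FISC at kept domains. At trimmed domains the medians were 6.91 and 9.06 in ASC, against 12.3 and 12.8 in FISC. The classes were set by ASC coverage in these same peak lists, so breadth in ASC follows from the class. That the fold medians went the same way as breadth is therefore only a description, and single domains varied. Of all 510 domains, 390 had higher folds in both ASC libraries than in both FISC libraries, and 54 had lower ones. Of 51 trimmed domains, 34 had lower folds in both ASC libraries, against 3 of 336 kept domains. Higher folds in both ASC libraries were seen at 13 trimmed and 312 kept domains. Over all peaks of each list the median fold was 5.71 and 5.18 in ASC, against 4.57 and 4.97 in FISC. Folds at other shared FISC peaks were not compared. Of the 123 domains between, 65 had higher and 17 lower folds, although in 79 both ASC peaks were shorter. A domain without a peak entered with a fold of 0, as 5 trimmed domains did in ASC replicate 1.

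In domains that were not kept, coverage in ASC was lower in the outer parts than inside. In trimmed domains the outer 25% at each end was covered to 25.1 and 41.6% in ASC, against 94.7% in FISC replicate 2, and the inner part to 46.2 and 63.7% in ASC, against 99.1%. In the domains between kept and trimmed the outer parts had 62.2 and 78.5% in ASC, against 91.6%, and the inner part 91.6 and 97.9% in ASC, against 99.2%. In kept domains the outer parts had 96.4 and 98.2% in ASC, against 94.3% in FISC replicate 2. At 13 trimmed domains with a start site of known strand inside, the side downstream of the start was covered to 33.1 and 50.5% in ASC, against 98.2% in FISC replicate 2. The upstream side had 45.4 and 59.8% in ASC, against 95.2%. The start site itself lay under a peak in 8 and 8 of these 13 in ASC, against 12 in FISC replicate 2.

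Over all 1020 domain edges, coverage 0.25 kb inside the edge was 76.2 and 82.4% in ASC, against 92.4% in FISC replicate 2. At 0.25 kb outside it was 37.6 and 51.0% in ASC, against 29.2 and 34.3% in FISC. Set beside FISC replicate 2, coverage in ASC was lower just inside the edges and higher just outside. In ASC replicate 1 the excess outside was small (37.6%, against 34.3%). FISC replicate 1 defines the edges, so it is at 100% inside and low just outside by construction. FISC replicate 2 was also used by the rule, and the ASC lists cover more bases in all, so this contrast is only a description.

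**Figure D4:**
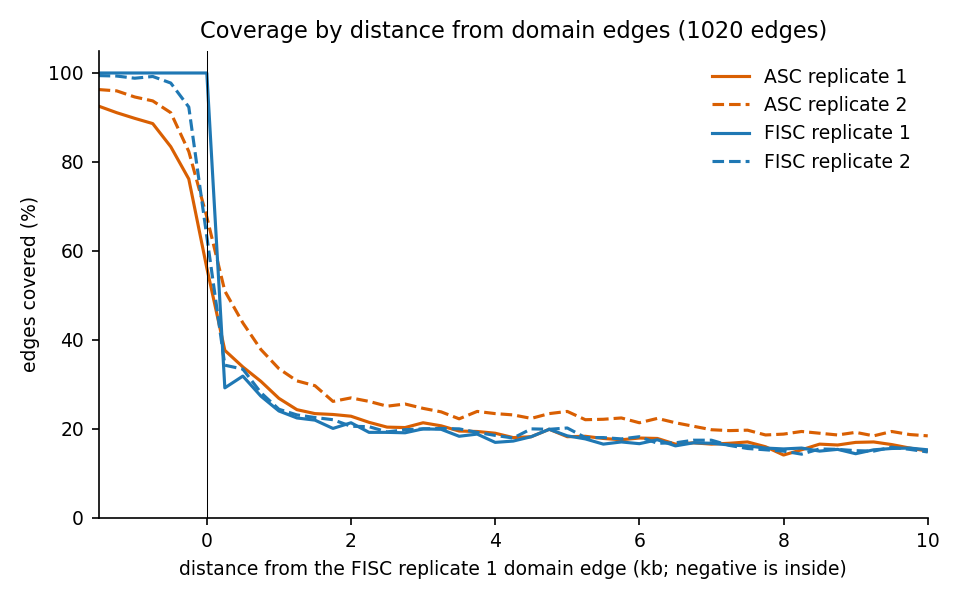
Share of the 1020 domain edges covered by a peak (y axis, %) by distance from the FISC replicate 1 edge (x axis, kb, negative inside), 1 line per library. Just inside the edge the ASC lines lie below FISC replicate 2, and at 0.25 kb outside both lie above the FISC lines.

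Of the 10 longest named domains 9 were kept, although of the 60 domains of 5 kb or more in both FISC libraries only 37 (61.7%) were, beside 65.9% of all domains. The first by mean FISC length, chr19:5836659-5851397 in the body of Frmd8, overlaps Neat1, the long noncoding RNA that builds nuclear paraspeckles. It was covered over 100 and 100% in ASC, where single peaks of 17297 and 17727 bases spanned it, against 14739 and 11687 bases in FISC. Next came the domain of Setd1b, an H3K4 methyltransferase, at chr5:123135396-123143907. It was covered over 100 and 100% in ASC, with peaks of 10216 and 11376 bases in ASC against 8512 and 8859 bases in FISC. The domain of Id3 (chr4:136139497-136148209) was covered over 96.9 and 97.3% in ASC and measured 8713 and 8588 bases in FISC. The ASC peaks thus spanned the whole Setd1b domain, and at Id3 they stopped short of its upstream edge.

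The domain near Nanos3, a germ cell RNA-binding gene, had 98.9 and 98.0% in ASC. In the body of Plec, which encodes the cytoskeletal linker plectin, neighbouring domains were covered over 100 and 100% in ASC by peaks of 14442 and 19807 bases. The domains of Aopep, an aminopeptidase gene, had 95.6 and 95.9% at the longest, and that of Pakap, a kinase-anchoring gene, 97.3 and 98.9%. The exception was Mafk, a small Maf factor, with 82.9 and 91.8% in ASC. Its longest ASC peaks had 1933 and 2479 bases, against 8155 and 7684 bases in FISC, so in the lists as deposited it was split rather than uncovered. Its lower ASC share fell to 59.1% with peaks of a fold enrichment of at least 5. With lists of equal covered length it was 54.8%. Of similar length was a trimmed domain in the body of Klhl26 (chr8:70460960-70470647), with 50.4 and 65.7% in ASC. In 3 places (in Aopep, Plec and Irs1) a pair of neighbouring domains shared 1 FISC replicate 2 peak, and they are not independent.

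The domains with the lowest ASC coverage belonged to varied genes. Prelp (chr1:133917112-133922333) had 0 and 4.84% covered in ASC, where the only peak had 253 bases, against 5222 and 5163 bases in FISC. Gpx3 (chr11:54901841-54907340) had 6.91 and 28.5% in ASC, against 5500 and 7360 bases in FISC. Csdc2 (chr15:81936201-81940269), an RNA-binding cold shock domain gene placed by its gene ends with strand unknown, had 13.1 and 7.08%. The domains of Prelp and Gpx3 lay over a start, and in all 3 ASC had only short peaks.

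At other starts Nav1, which encodes a microtubule-binding navigator protein, had 14.3 and 31.1% in ASC and Txn2, the mitochondrial thioredoxin, 5.50 and 33.5%. Inside genes, Prex1, a Rac exchange factor, had 0 and 11.0%, Cry2, a repressor of the circadian clock, 0 and 32.5%, and a domain in the repressor gene Zhx2 0 and 14.4%. The domain at the start of Zhx2 was covered over 100 and 100%, so low coverage was seen in the body and not at the start. Domains near Vps13c, a lipid transfer gene, and Fxyd3, a modulator of the sodium pump, had 8.84 and 14% and 11.6 and 34.0% in ASC. The lowest domain share in FISC replicate 2 was 78%. These 10 were chosen for their low ASC shares, so their place below it was set by that choice.

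Several genes known from satellite cells had a domain. Of 22 identity genes 7 had a domain at a start, beside 342 of all 19926 named protein-coding genes (1.72%). Of their 8 domains 5 were kept, beside 65.9% of all domains and 74.1% of domains at starts. Pax7 had 97.8 and 99.4% covered in ASC, with domain lengths of 3227 and 3799 bases in FISC. Myf5, the early myogenic factor, had 98.0 and 98.4%. The coreceptor gene Sdc4 had 100 and 98.4%. Msc, a basic helix-loop-helix repressor, had 67.7 and 86.3%, and Fgfr1, a growth factor receptor gene, 89.0 and 97.4%. Cxcr4 was the trimmed one of these 8, with 62.0 and 73.4% in ASC, against 97.2% in FISC replicate 2. Its longest ASC peaks had 3044 and 3603 bases, so both still exceeded 3 kb. A neighbouring Fgfr1 domain outside this count (chr8:25523587-25526981) was also trimmed. Another in Fgfr1 (chr8:25534978-25538552) lay between.

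Of 30 quiescence genes 6 had a domain, beside 1.72% of all named protein-coding genes. Of these domains 4 were kept, beside 65.9% of all domains and 74.1% of domains at starts. The growth factor brake Spry1 had 100 and 100% in ASC, the forkhead factor Foxo3 100 and 100% and the factor Klf4 99.9 and 99.7%. Foxo1 had 82.9 and 88.0%, and the collagen gene Col5a1 84.9 and 84.6%. None of the 6 was trimmed, which is near the share of all domains (10%) and of domains at starts (5.99%). Calcr, the calcitonin receptor of quiescent cells, had no domain: its start windows held 0 and 0 kb in ASC, against 1.5 and 0.947 kb in FISC. Hey1, a Notch target, had no domain either, with 2.33 and 2.87 kb in ASC, against 3.17 and 3.41 kb in FISC. In the Notch list the effector Rbpj (100 and 100%) and the ligand Jag1 (97.9 and 100%) had domains.

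Immediate early genes, which respond within minutes to stress and growth signals, held the largest count. Of 47 such genes 22 (46.8%) had a domain at a start, beside 1.72% of all named protein-coding genes. Of the 22 domains 18 were kept, 3 lay between and 1 was trimmed. Of all domains at starts 74.1% were kept and 5.99% trimmed. Examples are Fosl2 (97.2 and 100% in ASC), the transcription factor Klf6 (100 and 100%), the anti-apoptotic Mcl1 (94.2 and 100%) and Myc (100 and 100%). Cebpb, a leucine zipper factor, had 61.0 and 88.1%. Its relative Cebpd, whose domain also lies at the start of Spidr, was trimmed, with 49.2 and 47.2% in ASC, against 98.5% in FISC replicate 2. The lists were chosen with earlier results of these data known, and their counts support nothing by themselves.

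Of the TGF-beta, BMP and Id genes 7 of 18 had a domain, beside 1.72% of all named protein-coding genes. Of these 7 domains 4 were kept and 1 was trimmed, beside 74.1 and 5.99% of domains at starts. Id3, Id2 (100 and 100%), the corepressor Tgif1 (98.9 and 97.7%) and the inhibitory Smad7 (100 and 100%) were kept. The signal transducer Smad3 (77.8 and 84.8%) and the ligand Bmp6 (42.8 and 79.4%) lay between. The ligand Bmp4 (chr14:46385132-46390898) was trimmed, with 41.7 and 70.3% in ASC, and no ASC peak reached its start site. Both ligand genes thus had under 50% covered in ASC replicate 1.

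Positional factors, which record limb and trunk position, had 5 of 21 genes with domains, and 5 were kept, beside 74.1% of domains at starts. Beside this list and those below, 1.72% of all named protein-coding genes had a domain at a start. They were Hoxc10, Hoxc9 and Hoxc11 (100 and 100% each), Hoxa10 (95.2 and 92.1%) and the limb muscle factor Lbx1 (91.2 and 91.2%). Of 22 extracellular matrix genes 5 had a domain in 4 places, and 1 of the 4 was kept, beside 74.1% of domains at starts. Sparc (97.2 and 97.5%) was kept, while Col5a1, the laminin gene Lamc1 (85.1 and 94.0%) and the pair Col4a1 and Col4a2, which share a domain between them (74.8 and 76.0%), lay between. Of 24 myogenic genes only Myod1 (99.4 and 100%) and the intermediate filament gene Des (69.0 and 76.8%) had one, of 29 cell cycle genes only Cdk6 (100 and 100%), and of 21 chromatin regulators 2, among them the acetyl-lysine reader Brd2 (100 and 100%). The heat shock and ribosome biogenesis lists held 0 of 15 and 0 of 14.

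Markers of other cells were nearly without domains. Dpt, a fibroblast matrix gene, was the only one, with 38.0 and 62.2% of its domain covered in ASC, against 97.3% in FISC replicate 2. The 12 fibro-adipogenic markers together held 9.43 and 10.6 kb of peaks round their starts in ASC, against 7.68 and 7.35 kb in FISC. The ASC lists also cover more bases in all. Pdgfra, Dcn, Lum, Col1a1, Pi16 and Tcf21 were at 0 in all libraries. Ly6a had 1.442 and 2.167 kb in ASC, against 0 and 0 kb in FISC. Gsn had 3.835 and 4.0 kb in ASC, against 2.305 and 2.005 kb in FISC. Col3a1 was also higher in both ASC libraries, while Dpt and Cxcl14 were lower in both. The 12 smooth muscle and pericyte markers held 5.15 and 5.92 kb in ASC at 3 and 5 starts, against 9.03 and 7.48 kb in FISC at 8 and 6 starts. Their sums were lower in ASC, and Tagln, Pdgfrb, Abcc9 and Cspg4 were lower in both ASC libraries. Notch3 was higher in both ASC libraries, and Acta2 overlapped between the conditions. The 12 myeloid markers held 1.92 and 3.18 kb in ASC, against 1.18 and 0.953 kb in FISC, so their sum was higher in ASC. Of these markers 8 were at 0 in all libraries, and Spi1 and Laptm5 were higher in both ASC libraries. Cd68 overlapped between the conditions, and Csf1r had a peak in ASC replicate 2 alone. The 12 endothelial markers held 1.22 and 1.79 kb in ASC, against 2.10 and 2.56 kb in FISC. The part of other cells in the trimmed domains was not tested.

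Promoter windows in domains held more CG dinucleotides than promoters at large. The table held 21263 windows of 17492 genes, of which 312 windows of 246 genes lay inside domains. The median number of CG dinucleotides was 27 in domains, against 13 in all windows, and the GC box (GGGCGG on either strand) stood in 74.7%, against 46.2% of all. The CCAAT box (CCAAT) stood in 29.2%, against 38.2%, the TATA box (TATAAA) in 8.97%, against 12.6%, and the E-box (CAGCTG) in 15.4%, against 15.6%. The AP-1 site (TGANTCA) stood in 6.09%, against 6.99% of all windows. Set beside all windows, those in domains were thus CG-rich, with E-boxes and AP-1 sites about as frequent. Windows under other shared FISC peaks were not counted apart, so CG richness is not shown to be particular to broad domains. The 11 windows of trimmed domains had a median of 19 CG, against 27 in the 241 windows of kept domains, and TATAAA stood in 4 of 11, against 19 of 241. Such matches are letters in a window and not sites, 11 windows are few, and windows of 1 gene overlap one another.

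Some domains held small RNA hairpins, 10 hairpins in 10 domains. The domain of Spaca6 holds Mirlet7e, a member of the let-7 family that represses growth genes, and was covered over 82.1 and 99.6% in ASC. Its main mature sequence is shown in RefSeq letters with the seed, bases 2 to 8, in capitals.
mmu-let-7e-5p: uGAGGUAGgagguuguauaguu
The trimmed one among them, with Mir3089, had 62.0 and 73.0% in ASC, and the domain of Anxa2 with Mir3109 had 100 and 100%.

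Near the length threshold of 3 kb the domains of Msl1 and Septin9 were each covered over 100 and 100% in ASC, with lengths of 3000 and 3272 bases at Msl1 and 3955 and 3000 bases at Septin9 in FISC. That of Boc was covered over 51.3 and 78.4% in ASC, with 3209 and 3000 bases in FISC. Just outside it, a peak at Cdk14 was covered over 86.2 and 100% in ASC, with 2998 and 3189 bases in FISC. A peak near Dusp1 had 85.7 and 90% in ASC, with 3892 and 2996 bases in FISC, and a peak at Slc43a2 had 85.5 and 100% in ASC, with 3006 and 2995 bases in FISC.

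Acetylation beside the domains was tested on bases that had not chosen any domain, although the FISC edges set where these bases begin. It was the covered length from 1 to 6 kb beyond the outer FISC edges on both sides, leaving out bases of the FISC peaks that chose any domain. Of 510 domains 423 were covered there in at least 2 libraries and were tested with limma across all shared FISC peaks, with Benjamini-Hochberg adjustment. It rose beside 113 domains (26.7%, background 28.7% of 20301 shared peaks) and fell beside 69 (16.3%, background 15.4%), so both shares were near those of other FISC peaks. Of the rises 25 had 0 kb in both FISC libraries and of the falls 19 had 0 kb in both ASC libraries, so these passed the filter only through the condition where they are high. With coverage required in at least 1 library of each condition, an alternative added after seeing the data, 96 rose and 47 fell of 363 domains, beside 3895 and 1807 of 15871 shared peaks. The mean was 2.18 kb in ASC and 1.77 kb in FISC, and the median difference was 0.234 kb, against 0.228 kb over all shared peaks. Calls followed the class of the domain, which rests on the same libraries and is given with no test. Beside kept domains 102 of 281 rose and 18 fell, and beside trimmed domains 3 of 43 rose and 28 fell.

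Among named domains the differences beside Nfib, a nuclear factor I gene, were the highest. It had 8.24 and 8.42 kb in ASC, against 2.45 and 2.48 kb in FISC, a difference of 5.87 kb (SE 0.362, adjusted p = 0.00705 by limma). Map4k4, a kinase gene, had 6.64 and 7.40 kb in ASC, against 1.26 and 1.56 kb in FISC (difference 5.61 kb, adjusted p = 0.00705 by limma). The libraries of the 2 conditions did not overlap at either gene. Cubn, an endocytic receptor gene, Hmga1, an architectural chromatin factor, and Cd44, the hyaluronan receptor, followed with differences of 5.54, 5.47 and 5.17 kb.

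The decreases were smaller. Prex1 had 0 and 0 kb in ASC, against 4.05 and 3.96 kb in FISC, a difference of -4.00 kb given without a test, since it passed the filter only through FISC. Piezo1, a mechanosensitive channel gene, had 0 and 0.2 kb in ASC, against 3.49 and 4.65 kb in FISC (adjusted p = 0.00855 by limma). Popdc2, a muscle membrane gene, had 1.39 and 3.44 kb in ASC, against 6.75 and 6.17 kb in FISC (adjusted p = 0.0242 by limma), while from 5 to 50 kb its difference was 6.93 kb, the other way. Medag and Ampd3, an AMP deaminase gene, had differences of -3.43 and -3.35 kb.

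The numbers of calls depended on scaling and on single libraries. Divided by total covered length, 77 domains rose and 154 fell (4270 and 6086 of all shared peaks), so rises made up 33.3% of the calls, against 62.1% unscaled, and the median over all shared peaks moved to -0.210 kb. With lists of equal covered length 48 rose and 140 fell. Leaving out FISC replicate 1 or 2 gave 5 and 4 rises with 32 and 30 falls, and leaving out ASC replicate 1 or 2 gave 93 and 64 rises with 20 and 31 falls. In these fits the lone library of a condition is assumed to vary like the other condition.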

How the data were processed

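H3K27ac was profiled in 4 libraries, 2 of ASC and 2 of FISC, and the labels gave condition and replicate. MACS2, BWA, Picard, bcl2fastq 2.19 and the build mm10 are named in the submitters' processing notes; their settings are not given in the sources at hand. The authors deposited 1 narrow peak list per library, with coordinates from 0, written here from 1. The fold enrichment deposited by the authors, a ratio of the summit over its local background from MACS2, was only described. The deposited −log10 q values were made by MACS2 and served only to cut lists. Files hold no counts, so no depth or interval is given.

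The members and gene lists were chosen with earlier results of these data known. Domains were FISC replicate 1 peaks of 3 kb or more overlapping, by at least 1 base, such a peak of FISC replicate 2. The share of each domain's bases under peaks was computed per library with Python 3.11.15 and pandas 2.3.3. Genes came from RefSeq on GRCm38.p6, the assembly of mm10: 21887 protein-coding genes, 17492 with a start site and strand from promoter windows and 4395 placed by both ends. A domain was named by the start nearest its middle within 2 kb, else by the gene body, else by the nearest gene within 50 kb, leaving out predicted genes and clone names. Named genes are the 10 longest, the 10 longest kept, the 10 least covered, the 5 largest called flank changes in each direction, list members in order of length, and 6 regulators (Pax7, Myf5, Myod1, Calcr, Hey1, Spry1). Beyond that rule, Klhl26, Zhx2 at its start and the small and long noncoding RNAs were picked after their values were seen. Some domains that the rule names are not reported here.

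Flanks were fitted with limma 3.58.1 (eBayes with trend, no scaling, linear kb) in R 4.3.3 over all shared FISC peaks, 2-sided, at an adjusted p of 0.05. The flank fit and the interval code were tested on simulated data. Alternatives changed the length minimum, peak cut-offs, list length, joining, overlap, class limits, flank and scaling. Same-numbered libraries did not deviate together (correlation -0.03), so the numbers were not treated as pairs.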

Additional observations from a re-analysis of the deposited data

How the results depend on the processing

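With a length minimum of 2, 4 and 5 kb the rule gave 2037, 168 and 60 domains, and with peaks joined within 500 bases 1300. Joined peaks had a median of 88.96% covered in both ASC libraries (95.7% as deposited), 48.8% kept and 20.9% trimmed. With lists of equal covered length 16.9% were trimmed, and with limits of 80 and 95% for kept 78.2 and 52.5% were kept. Leaving out a FISC library gave 705 to 714 domains, while leaving out an ASC library left the 510 as they were. Over these 4 settings medians were 93.4 to 99.3%, with 60.9 to 75.9% kept and 10 to 17.8% trimmed. Kept was highest without ASC replicate 1 and trimmed without ASC replicate 2. For these shares the cause was not tested.

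For flanks, rises beside all shared peaks were 9952 at 0 to 5 kb and 12076 at 5 to 50 kb. Divided by total covered length there were 154 falls beside domains and 6086 beside all shared peaks. With coverage required in each condition, chosen after seeing the data, 1807 fell beside all shared peaks, with fewer features tested. With equal covered length there were 48 rises and 140 falls beside domains, and 2785 and 6368 beside all shared peaks, of which rises were 25.5% and 30.4% of the calls. Leaving out 1 library gave 4 to 93 rises and 20 to 32 falls beside domains, and 262 to 5063 rises and 803 to 1934 falls beside all shared peaks; these fits have fewer samples. The replicate block gave 122 rises and 71 falls beside domains and moved no count of calls by over 1.5 times. The difference of Popdc2 was 6.93 kb at 5 to 50 kb, the other way. Over the alternatives for the 10 named flanks, 1 difference, that of Popdc2, changed sign, and others lost the call in some settings. A count of calls is not given here. Prex1 passed the filter only through FISC, and some fits had 1 library in a condition.

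Peak length depends on depth, which is unknown, and 2 libraries per condition leave the spread poorly known. Input coverage was not used here.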

Other observations

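Long noncoding RNA genes lay within 16 of the domains, an overlap looked up after the values were seen. Beside Neat1, kept domains overlapped Chaserr (100 and 100% in ASC), which lies beside Chd2, and Gas5 (98.4 and 100%), a host of small nucleolar RNAs. Pvt1, downstream of Myc, had a kept domain of its own (94.8 and 98.5% in ASC). Airn, the imprinted antisense transcript of Igf2r, was overlapped by 2 kept domains (91.8 and 100% and 94.3 and 97.3% in ASC). Lncpint was overlapped by a kept domain (100 and 100%) and by another with 82.5 and 89.8% in ASC. Of the 16, 0 were trimmed, where 10% of all domains were, so a count of 0 in 16 is near that share. Peaks carry no strand, so a domain cannot be told apart between such a gene and its neighbours.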
